A study of Mus musculus with 8 samples.

Results

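The 10 genes described here are cardiac transcription factors and muscle regulators of the early heart: *Nkx2-5*, *Isl1*, *Gata4*, *Gata6*, *Tbx5*, *Tbx20*, *Hand1*, *Hand2*, *Mef2c* and *Smyd1*. They were chosen by name, as every non-control probe whose RefSeq transcript maps to one of these symbols, and they make up 10 of the 20660 named genes on the array. They had 13 probes, of which *Tbx20* had 3 and *Smyd1* had 2, and all 13 were well above background on all 8 arrays and passed the filter on dim probes. Whole embryos were collected at E8.5 from wild-type mothers, 4 sired by wild-type (WT) males and 4 by males heterozygous (HET) for Eedl7Rn5-1989SB, a hypomorphic allele of *Eed*, a core subunit of the histone methyltransferase complex PRC2. The labels give C57bl6/129 as strain and background, without tying it to the mothers. On the mothers the paper's text and a figure legend for this comparison differ. The text gives them the same background as the males, and the legend c57bl/6J. All 8 embryos were themselves wild-type, so the comparison asks whether the genotype of the father alone goes with a difference in the offspring. Each group held 2 females and 2 males, with embryos 1 and 3 female in the WT father group and embryos 2 and 4 female in the HET father group.

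At this stage the mouse heart is a looping tube. *Nkx2-5*, the *Gata* factors and *Tbx5* act together in the first heart field to switch on contractile genes, and *Isl1* marks the second heart field, whose progenitors lengthen the tube. *Hand1* and *Hand2* are needed for growth of the ventricles, *Tbx20* for chamber growth, *Mef2c* for the second field and contractile genes, and *Smyd1*, a muscle-restricted chromatin factor with a methyltransferase domain, for differentiation of the myocardium. Most of these genes are also used outside the heart. *Isl1* marks motor neurons, *Gata4* and *Gata6* are active in extraembryonic endoderm, *Hand1* in trophoblast and in the mesoderm of yolk sac and allantois, and *Hand2* in the branchial arches. Genes encoding regulators of this kind often have promoters rich in CpG and are known targets of PRC2 in cells that do not use them.

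Start-site windows were held for 6 of the 10 genes in a RefSeq table of build GRCm38.p6, 8 windows in all because *Mef2c* had 3. The windows of 4 genes are printed. Those of *Isl1*, *Hand2* and *Nkx2-5* show how unlike the promoters of genes that moved together across embryos can be. That of *Smyd1*, whose brighter probe moved against those genes, is printed beside them. Each is the 250 bases before the start, read in the direction of the gene, from chr13:116309689-116309938 (minus strand) for *Isl1*, chr8:57320733-57320982 (plus strand) for *Hand2*, chr17:26841566-26841815 (minus strand) for *Nkx2-5* and chr6:71262282-71262531 (minus strand) for *Smyd1*. Capitals mark every match, on either strand, to AGATAA (the GATA type), CAAGTG (the NKX2 type), GGTGTG (the T-box type), CANNTG (the E-box, which also covers CAAGTG) or TATAAA.
Isl1: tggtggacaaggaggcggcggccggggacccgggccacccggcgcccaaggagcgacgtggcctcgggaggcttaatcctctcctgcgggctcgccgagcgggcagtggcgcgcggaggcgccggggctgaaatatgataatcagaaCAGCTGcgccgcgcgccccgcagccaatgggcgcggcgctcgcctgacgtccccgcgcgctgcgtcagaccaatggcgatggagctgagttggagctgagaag
Hand2: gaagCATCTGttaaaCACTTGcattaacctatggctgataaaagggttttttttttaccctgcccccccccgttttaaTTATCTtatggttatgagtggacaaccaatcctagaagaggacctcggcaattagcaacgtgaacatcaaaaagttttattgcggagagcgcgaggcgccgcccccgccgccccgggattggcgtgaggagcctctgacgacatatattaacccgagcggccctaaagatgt
Nkx2-5: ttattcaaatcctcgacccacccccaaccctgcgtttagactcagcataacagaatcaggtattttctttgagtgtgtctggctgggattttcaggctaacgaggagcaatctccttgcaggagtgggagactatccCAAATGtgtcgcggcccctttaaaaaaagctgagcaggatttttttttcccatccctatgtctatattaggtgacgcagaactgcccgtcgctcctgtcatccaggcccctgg
Smyd1: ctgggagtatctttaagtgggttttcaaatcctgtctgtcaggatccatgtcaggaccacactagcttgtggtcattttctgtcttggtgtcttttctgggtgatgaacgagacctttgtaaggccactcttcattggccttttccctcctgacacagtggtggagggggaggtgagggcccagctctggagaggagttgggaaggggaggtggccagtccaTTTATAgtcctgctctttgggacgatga

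The window of *Isl1* was 71.2% G and C and held 33 CpG sites, 1.05 times the number its base composition would give. That of *Hand2* had 15 CpG sites (0.993 times), that of *Nkx2-5* had 8 (0.535 times) and that of *Smyd1* had 2 (0.126 times), while the median over 32536 distinct windows of this length was 0.378 times. *Tbx20* lay at 0.749 times and the 3 *Mef2c* windows at 0.149, 0.484 and 0.261 times. *Isl1*, *Hand2* and *Tbx20* stood at percentiles 96.4, 93.9 and 76.8 of these windows, and *Smyd1* at percentile 18.5. An AGATAA match was found in the *Hand2* window alone, 172 bases before the start, and such a match occurs in 9.97% of all windows. CAAGTG was found in *Hand2* and in a single *Mef2c* window (11.5% of all windows hold it), and GGTGTG in another *Mef2c* window (16.3%). A CANNTG match, present in 66.2% of all windows, was found in *Hand2*, *Isl1*, *Nkx2-5* and 2 of the *Mef2c* windows. TATAAA occurred in *Smyd1*, where it lay on the opposite strand 28 bases before the start, and in 2 *Mef2c* windows (12.3%).

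Values below are log2 intensities after each array was shifted so that its 75th percentile was 0, so they compare a probe between embryos and not one probe with another. Since whole embryos were measured, fewer cells of a type and less RNA per cell cannot be told apart. The arrays of a father group shared a slide that held none of the other group, so an effect of the slide cannot be told apart from one of the father, and the number of arrays limits the precision. In the WT father group, 3 embryos share the first part of their label code. The labels do not explain it, nor how many males sired the embryos. The paper's breeding plan names fewer than 4 males for either group, while a figure legend for this comparison gives n = 4 for each genotype. Embryos of a group may therefore share a father. The p-values measure the spread between these embryos and treat them as independent. With the label code as a random block, the correlation within a code was 0.54. In that fit 685 probes had an unadjusted p under 0.05 (limma), against 1440 without the block. The arrays of WT father embryo 1 and HET father embryo 3 stood apart, with 39530 and 38878 probes well above background against 29203 to 35486 on the other 6, and the local background of HET father embryo 4 was 133 against 30 to 32 on its slide. Heart muscle markers were detected: 26 of 28 heart tube and contractile genes were tested, among them *Actc1*, *Myl7* and *Tnnt2* well above background in all 8 embryos. Markers of other tissues were also detected, with 10 of 11 visceral yolk sac endoderm genes, 8 of 8 primitive erythroid genes and 8 of 10 trophoblast and decidua genes tested, while the skeletal muscle factors *Myf5*, *Myod1* and *Myog* were well above background on 0 arrays.

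At none of the 10 genes did the father groups differ by more than the spread between embryos. Of the 13 probes, 0 were called at an adjusted p under 0.01 and at least 2-fold (limma, Benjamini-Hochberg adjustment, smallest adjusted p = 0.9998), as were 0% of the 33093 probes tested, and 0 of 13 had an unadjusted p under 0.05, where the background was 4.35%. At 0 of 13 probes did the groups separate without overlap, against 3.15% of all probes. Differences of the brightest probe of each gene ran from -0.03 to 0.21 on the log2 scale, with 8 of 10 above 0 and a median of 0.09. Over the brightest tested probe of every named gene, 8785 of 15378 were above 0 and the median was 0.02. The 95% intervals of these 10 differences, expressed as folds of HET over WT father, all lay between 0.814 and 1.55, so a 2-fold difference in either direction was outside each of them.

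**Figure D1:**
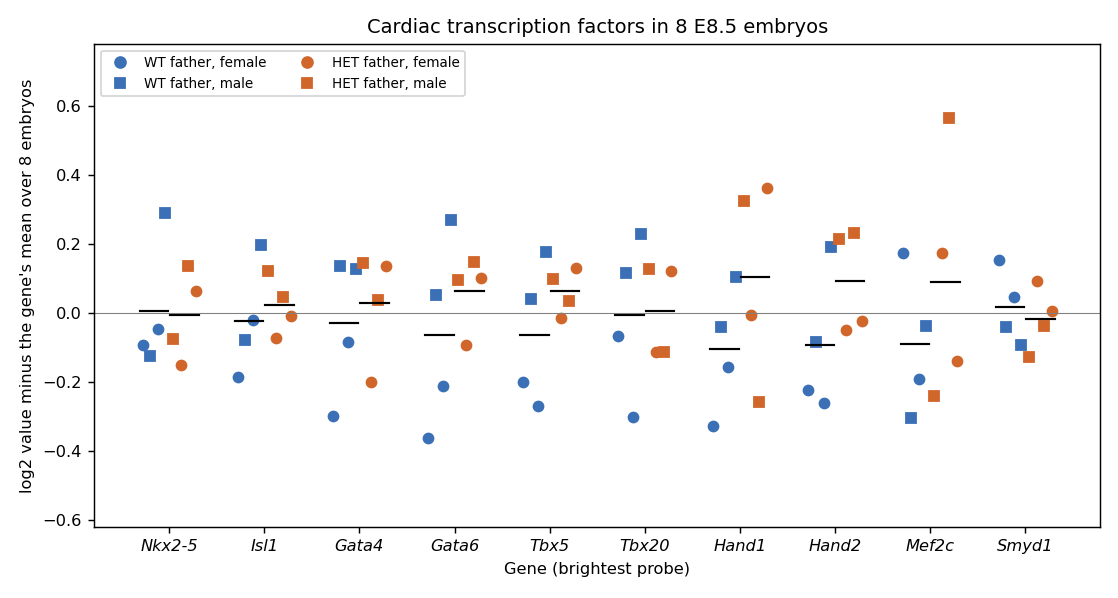
Log2 value of the brightest probe of each gene in each embryo, minus the gene's mean over the 8 embryos (y axis, log2 units), for the 10 genes (x axis). Blue points are embryos of WT fathers and orange points embryos of HET fathers, circles are females, squares are males and black lines are group means. The groups overlap at every gene, and WT father embryo 4, the rightmost blue square, is the highest of the 8 at *Nkx2-5*, *Isl1*, *Gata6*, *Tbx5* and *Tbx20*.

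For both homeobox genes the groups were close. The *Nkx2-5* probe, for the homeodomain factor that defines early cardiac progenitors, measured 1.42, 1.39, 1.47 and 1.81 in embryos 1 to 4 of WT fathers and 1.44, 1.37, 1.65 and 1.58 in embryos 1 to 4 of HET fathers. WT father embryo 4 stood highest, and the remaining values overlapped throughout. The means were 1.52 ± 0.19 and 1.51 ± 0.13 (SD, n = 4 each), a log2 fold change of -0.01 (95% interval -0.29 to 0.26, limma unadjusted p = 0.908).

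*Isl1*, the LIM homeodomain gene of second heart field progenitors and motor neurons, measured -1.08, -0.97, -0.91 and -0.70 with WT fathers and -0.77, -0.97, -0.85 and -0.90 with HET fathers. The HET father values lay inside the range of the WT father group. Its log2 fold change was 0.04 (95% interval -0.18 to 0.27, limma unadjusted p = 0.662). This probe was printed 10 times on each array, and 3 spot values over the 8 arrays were left out as outliers, which allowed the error of the array itself to be set beside the spread between embryos. The SD between spots of an array was 0.077, which gives an error of 0.024 for a mean of 10 spots, while the SD between embryos within a group was 0.128. The embryos therefore differed by more than spot error, from -1.08 ± 0.12 in WT father embryo 1 (SD, n = 10 spots) to -0.70 ± 0.06 in WT father embryo 4 (SD, n = 9 spots). Spot error does not include labelling or hybridisation of the array.

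**Figure D2:**
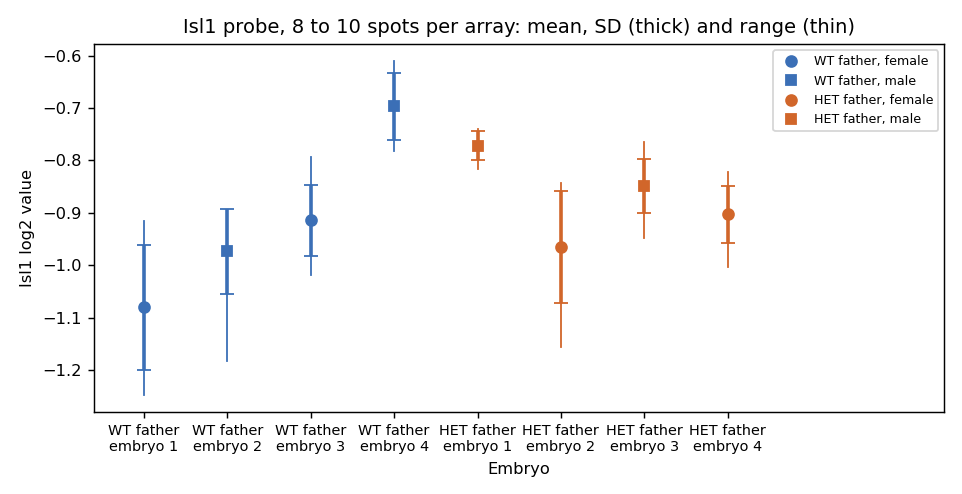
Log2 value of the *Isl1* probe (y axis) in each of the 8 embryos (x axis), with the mean of its spots as a point (circle female, square male, blue WT father, orange HET father), the SD between spots as a thick bar and the range of spots as a thin line. The spots of WT father embryo 4, from -0.78 to -0.61, do not overlap those of WT father embryo 1, from -1.25 to -0.92.

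Both GATA zinc finger genes, which bind the same DNA motif and partly stand in for each other in heart formation, followed one another across embryos. *Gata4* measured 1.58, 2.02, 1.79 and 2.01 with WT fathers and 2.03, 1.68, 1.92 and 2.02 with HET fathers. *Gata6* measured 1.54, 1.95, 1.69 and 2.17 with WT fathers and 2.00, 1.81, 2.05 and 2.00 with HET fathers. For both genes WT father embryo 1 was the lowest of the 8, and the groups overlapped. *Gata4* had a log2 fold change of 0.06 (95% interval -0.24 to 0.36, limma unadjusted p = 0.657) and *Gata6* one of 0.13 (95% interval -0.21 to 0.46, limma unadjusted p = 0.411).

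The T-box genes also ordered the embryos in much the same way. *Tbx5*, required for the inflow region and left ventricle and also for the forelimb field, measured 0.24, 0.48, 0.17 and 0.62 with WT fathers and 0.54, 0.43, 0.47 and 0.57 with HET fathers. Its 4 HET father values were close together and lay inside the wider WT father range, with SDs of 0.06 and 0.21, and the log2 fold change was 0.12 (95% interval -0.13 to 0.38, limma unadjusted p = 0.296). The brightest *Tbx20* probe measured 0.80, 0.98, 0.56 and 1.09 with WT fathers and 0.99, 0.75, 0.75 and 0.98 with HET fathers, a log2 fold change of 0.01 (95% interval -0.30 to 0.32, limma unadjusted p = 0.933). The other two *Tbx20* probes are assigned to other transcripts of the gene. The first of them gave 0.18 (95% interval -0.23 to 0.59) and the dimmest -0.05 (95% interval -0.58 to 0.48). All 3 *Tbx20* probes overlapped between groups, and the 3 differed from one another by less than their intervals.

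*Hand1* and *Hand2*, paired bHLH genes of the ventricles, had the most positive differences of the 10. *Hand1* measured 2.53, 2.82, 2.70 and 2.96 with WT fathers and 3.18, 2.85, 2.60 and 3.22 with HET fathers. HET father embryos 1 and 4 stood above all WT father embryos, HET father embryo 3 was among the lowest, and the log2 fold change was 0.21 (95% interval -0.17 to 0.59, limma unadjusted p = 0.237). *Hand2* measured 1.30, 1.44, 1.27 and 1.72 with WT fathers and 1.74, 1.48, 1.76 and 1.51 with HET fathers. WT father embryo 4 lay among the HET father values and the other 3 embryos of its group below them all, and the log2 fold change was 0.19 (95% interval -0.11 to 0.48, limma unadjusted p = 0.176). Without WT father embryo 4 the *Hand2* difference became 0.28 with an unadjusted p of 0.035, the single such value among the 13 probes in that fit, and its smallest adjusted p over these probes was 0.9998 (limma).

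The muscle regulators did not pass the test either. *Mef2c*, a MADS-box partner of the GATA and bHLH factors, measured -3.11, -3.59, -3.48 and -3.32 with WT fathers and -3.53, -3.11, -2.72 and -3.43 with HET fathers. It varied more than most of the 10 genes, with an SD within groups of 0.30, was highest in HET father embryo 3, an array that stands apart, and had a log2 fold change of 0.18 (95% interval -0.28 to 0.63, limma unadjusted p = 0.388). The value was 0.02 without that embryo. The brighter *Smyd1* probe measured 0.92, 0.73, 0.81 and 0.68 with WT fathers and 0.64, 0.86, 0.73 and 0.77 with HET fathers. It had the smallest spread within groups of the 10, an SD of 0.10, and a log2 fold change of -0.03 (95% interval -0.23 to 0.16, limma unadjusted p = 0.698). The dimmer *Smyd1* probe, for the same transcript, spread far more (SD 0.58) and gave -0.28, with an interval from -1.15 to 0.58 that does not leave out a 2-fold fall.

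**Figure D3:**
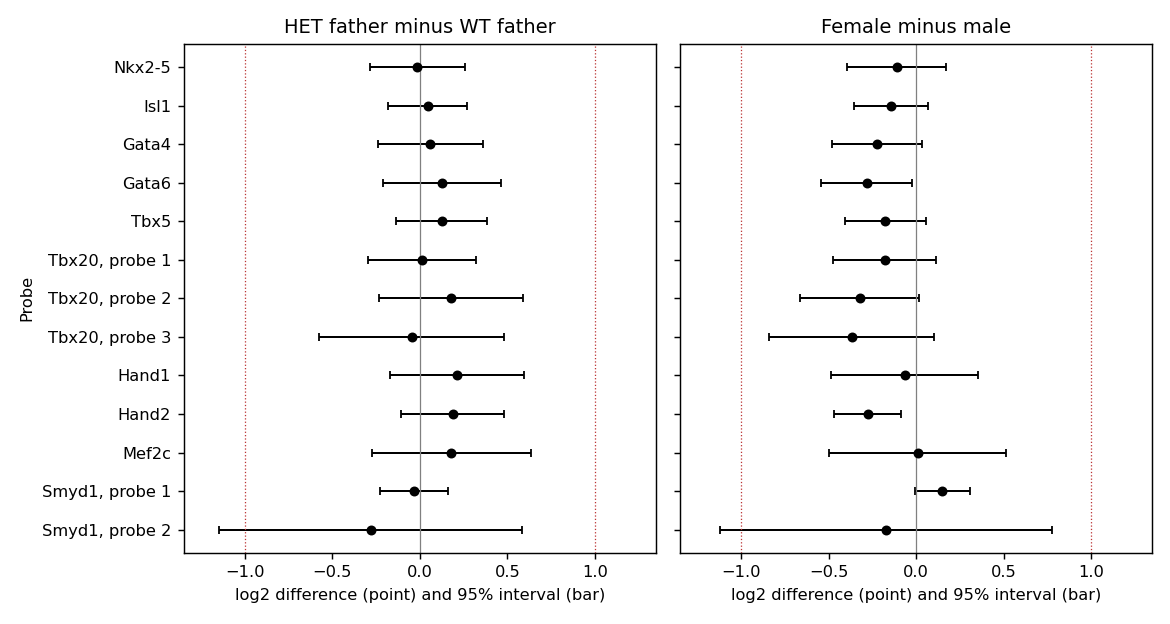
Difference in log2 value (x axis) with its 95% interval for each of the 13 probes (y axis), HET minus WT father on the left and female minus male on the right. Dotted lines mark 2-fold. On the left every interval includes 0, and on the right only those of *Gata6* and *Hand2* do not.

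Females had the lower mean at 11 of the 13 probes, where 55.1% of all tested probes were lower in females. By sex 0 of 13 were called (limma with father and sex in the fit, smallest adjusted p = 0.9999), against 0.0332% of all probes. An unadjusted p under 0.05 was reached by 2 of 13, *Gata6* and *Hand2*, where the background was 3.27%, or 1.31% counting only probes lower in females, as these were. *Hand2* was 1.39 ± 0.12 in females and 1.67 ± 0.15 in males (SD, n = 4 each), a difference of -0.28 (95% interval -0.47 to -0.09, limma unadjusted p = 0.0113). Its male values of 1.44, 1.72, 1.74 and 1.76 overlapped the female ones at the lowest male, WT father embryo 2. *Gata6* was 1.76 ± 0.19 in females and 2.04 ± 0.09 in males, a difference of -0.28 (95% interval -0.54 to -0.02, limma unadjusted p = 0.0364). *Gata6* passed that limit in 3 of the 8 fits that left out 1 embryo and *Hand2* in all 8. *Gata6* did not pass it with normexp and quantile normalization or with no filter on dim probes, and neither gene did when arrays were aligned on their medians or when the arrays of WT father embryo 1 and HET father embryo 3 were both left out.

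The other genes had smaller or less certain differences by sex. *Gata4* was lower in females by a log2 difference of -0.22 (limma unadjusted p = 0.0773), *Tbx20* by -0.18, *Tbx5* by -0.18, *Isl1* by -0.14, *Nkx2-5* by -0.11 and *Hand1* by -0.07, while *Mef2c* stood at 0.01. The brighter *Smyd1* probe ran the other way. It was 0.92, 0.81, 0.86 and 0.77 in the females and 0.73, 0.68, 0.64 and 0.73 in the males, without overlap, a difference of 0.15 (limma unadjusted p = 0.0597). The dimmer *Smyd1* probe, for the same transcript, had a difference of -0.17 (limma unadjusted p = 0.680). Sexes did not overlap at 2.58% of all probes, 1.37% with females higher. Marker lists of other tissues also differed in direction by sex. All 8 primitive erythroid genes were higher in females (median log2 difference 0.45, with *Gata1* at an unadjusted p under 0.05), as were all 10 visceral yolk sac endoderm genes (median 0.15, 1 at unadjusted p under 0.05, *Apoa4*). In the endothelium list 9 of 10 genes were lower in females (median -0.20), 3 of them at unadjusted p under 0.05, namely *Kdr*, *Cdh5* and *Sox18*. Extraembryonic mesoderm and allantois genes were lower in females at 6 of 7 (median -0.19), with *Vcam1* at -0.75 without overlap (limma unadjusted p = 0.0170, adjusted 0.9999). Most of the *Vcam1* difference lay in the WT father group, at -1.06 and -0.91 in females and 0.20 and 0.44 in males. With HET fathers it was -0.002 and 0.14 in females and 0.29 and 0.24 in males. Trophoblast and decidua genes were lower in females at 0 of 8 (median 0.13). Of the remaining lists, females were lower at 6 of 9 parietal endoderm, 5 of 6 neural tube, 3 of 4 somite, 2 of 8 earlier-stage and 3 of 4 later-stage genes, with 0 at an unadjusted p under 0.05. The part of these tissues in the sex differences was not tested.

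Whether the father's genotype acted differently in daughters and sons was tested with an interaction term. At 0 of 13 probes was it called (limma, smallest adjusted p = 0.9956, background 0%), and 0 of 13 had an unadjusted p under 0.05, where the background was 2.22%. *Tbx5* had the smallest unadjusted p of the 13, 0.0797. Its value was higher with HET fathers by 0.29 in females, with means of 0.50 and 0.20, and lower by -0.04 in males, with means of 0.51 and 0.55 (2 embryos each).

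The 10 genes were then compared with one another across embryos. With the mean of its father group taken away from each value, which also takes away the slide, 31 of the 45 pairs of genes had a positive Pearson r over the 8 embryos and the mean r was 0.24, where the mean over all pairs of tested probes was 0.055. All 14 negative pairs included *Mef2c* or *Smyd1*. Among the other 8 genes, set apart after these values were seen, all 28 pairs were positive with a mean r of 0.65. *Tbx5* with *Tbx20* (0.93) and *Gata6* with *Tbx5* (0.90) were highest. *Smyd1*, by its brighter probe, opposed these 8 genes one by one, from -0.49 with *Nkx2-5* to -0.91 with *Gata4*. Its dimmer probe did not enter the pairs and ordered the embryos otherwise. That probe was highest in WT father embryo 4 (-2.39) and lowest in HET father embryo 2 (-4.13). *Mef2c* had no common direction, from -0.85 with *Hand1* to 0.29 with *Nkx2-5*. The points share their array, since all 10 genes were read from the same 8. Differences by sex were not taken away, and their part in these values was not tested. Without the arrays of WT father embryo 1 and HET father embryo 3 the mean over 45 pairs was 0.31, and without WT father embryo 4 it was 0.087. Aligning the arrays on their medians raised it to 0.93, a setting in which array-wide offsets of the median enter every gene.

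**Figure D4:**
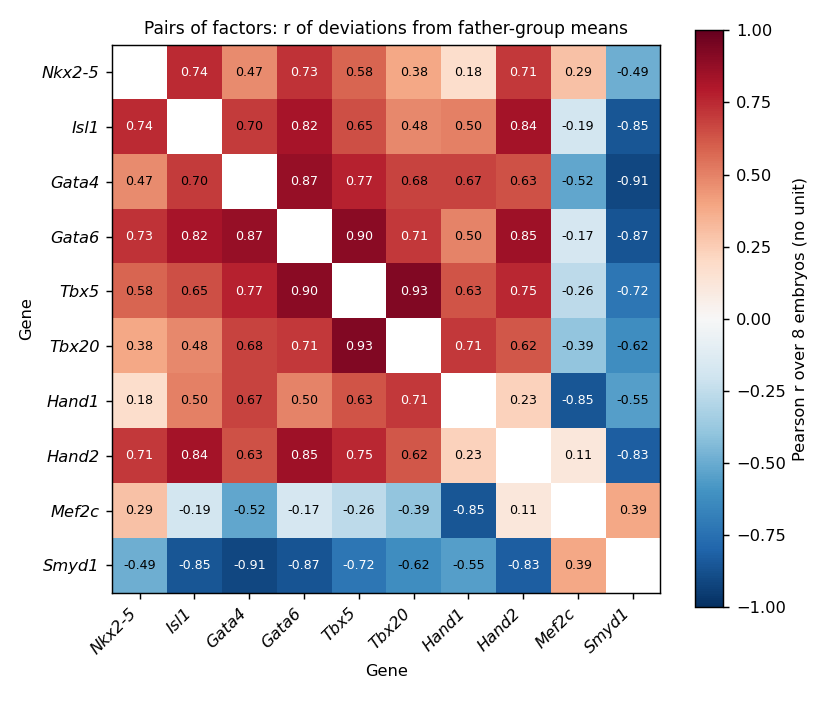
Pearson r (colour and printed value, no unit) between each pair of the 10 genes over 8 embryos, computed on deviations of log2 values from the father-group mean. The block from *Nkx2-5* to *Hand2* is positive throughout, the *Smyd1* row (brighter probe) is negative against all 8 of those genes, and *Mef2c* is mixed.

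For the 3 pairs of genes from one family the relation was also computed on the log2 values themselves, over 8 embryos, with exact two-sided permutation tests over all pairings and Benjamini-Hochberg adjustment over the 3. *Tbx5* and *Tbx20* had r = 0.85 (exact permutation p = 0.0063, adjusted 0.0189) and Spearman's rho = 0.90 (exact permutation p = 0.00456, adjusted 0.0137), and without the 2 embryos farthest from the *Tbx5* median, WT father embryos 1 and 3, r was 0.86. *Gata4* and *Gata6* had r = 0.87 (exact permutation p = 0.0160, adjusted 0.0240) but rho = 0.60 (exact permutation p = 0.132, adjusted 0.198), and r = 0.76 without WT father embryo 1 and HET father embryo 2. *Hand1* and *Hand2* had r = 0.41 (exact permutation p = 0.306, adjusted 0.306) and rho = 0.38 (exact permutation p = 0.360, adjusted 0.360), with r = 0.34 without HET father embryos 1 and 4. These p-values treat the 8 embryos as interchangeable, although the father groups lay on different slides and 3 WT father embryos share a label code. Both genes of a pair were also read from the same arrays, and the part of array-wide differences in these r was not tested. The genes were chosen with earlier results of these arrays known. With 4 embryos, a slide holds too few to test a relation within it. On deviations from the means of father group and slide, r was 0.93 for the T-box pair, 0.87 for the GATA pair and 0.23 for the *Hand* pair.

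The mean deviation of the 10 genes was highest in WT father embryo 4 (0.19) and lowest in WT father embryos 3 (-0.10) and 1 (-0.10) and HET father embryo 2 (-0.09), with the other 4 embryos between 0.01 and 0.03. The highest embryo was male and the 3 lowest were female. Of the other 4, HET father embryo 4 was female and the rest were male. Differences by sex were not taken away from these deviations or from those of the lists. The lists of other tissues tracked it to very different degrees. Across the 8 embryos, each of the 8 primitive erythroid genes ran against the mean of the 10 factors, with single-gene r from -0.97 for *Alas2*, the first enzyme of heme synthesis in red cells, to -0.84 for *Hbb-bh1*, an embryonic globin. The mean of this list had r = -0.95 and rho = -0.86 with the factors, r = -0.87 without WT father embryos 4 and 1, and -0.96 and -0.90 within the WT and HET father groups. It lay at -0.92 in WT father embryo 4, the embryo highest for the factors, and at 0.56, 0.25 and 0.25 in WT father embryos 1 and 3 and HET father embryo 2, the 3 lowest for the factors. *Hba-x*, the embryonic alpha-type globin, measured 7.75, 7.35, 7.56 and 6.50 with WT fathers and 7.35, 7.58, 7.47 and 7.46 with HET fathers, so WT father embryo 4 alone stood low.

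Visceral yolk sac endoderm genes also ran against the factors, 10 of 10, with list r = -0.91 and rho = -0.86, and r = -0.65 without WT father embryos 4 and 1. Within the HET father group the value was -0.35. *Afp*, the alpha-fetoprotein of yolk sac, had r = -0.97 and *Apob* -0.19, the ends of this list. In the same direction as the factors were the list of extraembryonic mesoderm and allantois (r = 0.88, 0.78 without its 2 farthest embryos) and endothelium (r = 0.82, 0.89 without its 2 farthest). Single-gene r was negative for 1 of 7 and 2 of 10 genes of these lists. These relations depended on the alignment of arrays: under a median shift the r of the factors with the erythroid list became 0.49 and with the yolk sac list 0.86. Under quantile normalization, normexp with quantile normalization, the deposited table and with outlier spots kept they stayed between -0.95 and -0.93 and between -0.91 and -0.82. The part of these tissues, or of sex, in the variation of the factors was not tested. No p is given for the lists because the genes were chosen with earlier results of these arrays known.

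**Figure D5:**
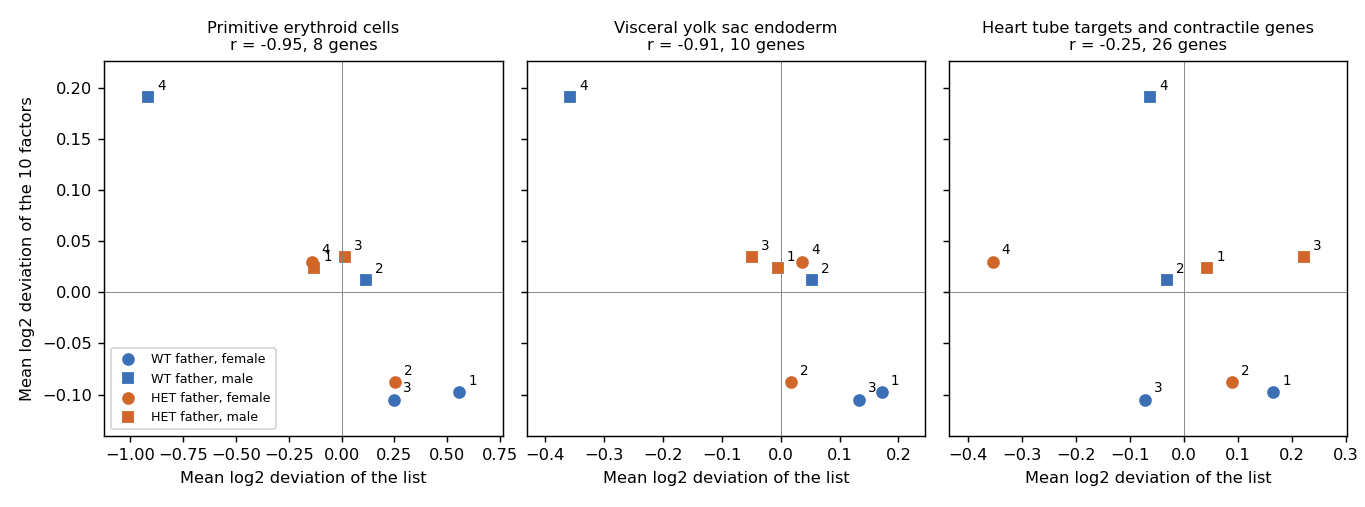
Mean log2 deviation of the 10 factors (y axis) against the mean log2 deviation of 3 marker lists (x axes) in the 8 embryos, both from father-group means. Colours give the father, shapes the sex and numbers the embryo. The erythroid and yolk sac lists fall as the factors rise (r = -0.95 and -0.91), with WT father embryo 4 far from the rest, and the contractile list shows no such order (r = -0.25).

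For the downstream genes of the heart tube the relation was weaker. The 26 tested contractile and heart tube genes had a list r of -0.25 (rho -0.02) with the mean of the 10 factors, and 19 of them had a negative single-gene r. By father, 0 of the 26 were called and 0 had an unadjusted p under 0.05, with a median log2 fold change of 0.02. *Gja5*, a gap junction gene of atria and conduction tissue, had 0.71 (limma unadjusted p = 0.0751), *Ryr2*, the calcium release channel, 0.49 and *Nppa*, the atrial natriuretic peptide, 0.33.

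Other regulators of heart formation gave 0 calls by father as well. Of 38 listed, 37 were tested, 0 were called and 0 had an unadjusted p under 0.05, 21 were above 0 and 16 below, and the median log2 fold change was 0.02. The largest differences were those of *Mesp1*, the earliest marker of cardiac mesoderm (-0.49), *Irx4*, a ventricular homeobox gene (0.48), and *Foxh1*, a partner of Nodal signalling (0.37). By sex, *Tbx18* (-0.42) and *Irx1* (-0.27) were lower in females without overlap, with limma p-values under 0.05 before adjustment and of 0.9999 after it. Together the 37 regulators had r = 0.87 with the mean of the 10 factors over the 8 embryos and r = 0.56 without WT father embryo 4 and HET father embryo 3. Within the WT and HET father groups the list r was 0.98 and 0.39. Single genes were less uniform, with 28 positive and 9 negative r and a median of 0.44.

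Among the signals that induce cardiac mesoderm, 16 of 18 genes were tested, 0 were called and 0 had an unadjusted p under 0.05. *Acvrl1*, a type I receptor for BMP9 and BMP10 known best from endothelium, had the largest difference, 0.71 (limma unadjusted p = 0.0521), and its groups did not overlap, with -0.50, -0.72, -1.92 and -0.81 for WT fathers and -0.47, 0.04, -0.47 and -0.21 for HET fathers. *Fgf8*, a signal of the second heart field, had -0.20 and *Wnt11*, a noncanonical Wnt ligand, 0.19. The median of the 16 was -0.01.

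Marker lists of other tissues were compared by father in the same way, and 0 genes were called in any of them. The primitive erythroid genes were all above 0, 8 of 8, with a median of 0.20 and 0 at an unadjusted p under 0.05, led by *Klf1* (0.53), *Slc4a1* (0.43) and *Alas2* (0.36). Yolk sac endoderm had a median of 0.00, with *Apoa4* at -0.44, *Apob* at -0.36 and *Trf* at -0.10. Extraembryonic mesoderm had a median of 0.13, with *Tbx4* at 0.93, *Hoxa13* at 0.79 and *Vcam1* at 0.50. The median of endothelium was 0.06, with *Sox18* at 0.24, *Tek* at 0.18 and *Tie1* at 0.17. In the trophoblast and decidua list, *Prl8a2*, a prolactin-family gene of the decidua, was lower with HET fathers by a log2 difference of -2.46 without overlap (limma unadjusted p = 0.0126, adjusted 0.9998). Its values were 1.99, 2.92, 1.56 and 2.32 with WT fathers and 0.72, 0.30, -2.61 and 0.54 with HET fathers. *Prl3d1* had -0.91 and *Cdx2* -0.18. The part of decidual tissue in the values of the 10 factors was not tested.

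The remaining lists were parietal endoderm (median 0.03, with *Fst* at -0.38, *Srgn* at -0.24 and *Thbd* at 0.17), neural tube and motor neurons (median -0.01, with *Lhx3* at 0.46, *Olig2* at 0.34 and *Pax6* at -0.17) and somites and skeletal myoblasts (median -0.11, with *Meox1* at 0.33, *Pax3* at -0.22 and *Uncx* at -0.16). For *Pax3* the limma p was 0.0299 before adjustment and 0.9998 after it, and its groups overlapped. Genes of earlier stages had a median of -0.02, with *Mesp1*, *Fgf5* (-0.34) and *Lefty2* (0.24) farthest from 0, and those of later stages -0.05, with *Nhlh1* (-0.28), *Stmn2* (-0.19) and *Tubb3* (0.16). In both stage lists 0 genes had an unadjusted p under 0.05.

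The named probes outside the 10 genes whose deviations most resembled their mean were those of *Nsmce4a*, *Dusp18*, *Arid2*, *Rasgrp3*, *Efr3b*, *Zfp318*, *Fndc3c1*, *Rab5b*, *Papolg* and *Itsn1*, with Pearson r from 0.97 to 0.99 over the 8 embryos. Their spread was small, with SDs within groups from 0.06 for *Zfp318* to 0.22 for *Dusp18*. *Nsmce4a*, the closest (r = 0.99), ran from 4.97 to 5.20 over the 8 embryos. With 33093 probes ranked against 8 points, values of this size are the top of that ranking.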

How the data were processed

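One-colour Agilent 8x60K arrays were made from the RNA of 8 whole E8.5 embryos. The authors extracted the spots with Agilent Feature Extraction 11.0.1.1 (submitters' processing notes), which subtracted background and removed spatial trends. The deposited intensity of a spot is on a linear scale, and arrays are not brought to one level. A deposited series-wide table, used as an alternative, holds this intensity within 0.497%, and 0 of its sample columns were left unused.

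The log2 intensity was shifted by each array's 75th percentile, without outlier spots, and a probe printed more than once was given the mean of its spots. The filter removed the dimmest 20% of probes and any that fewer than 4 arrays measured well above background. Comparisons used limma 3.58.1 (R 4.3.3, data.table, version 1.17.8), with father alone, father and sex, or their interaction. A call needed 2-fold and an adjusted p (Benjamini-Hochberg) under 0.01. Of 28685 probes with a RefSeq accession, 27235 were named through RefSeq symbols of assembly GRCm38.p6. The brightest tested probe stood for a gene. Named genes were all member probes, per list the 3 largest differences and any at unadjusted p under 0.05, and the 10 most similar probes. Genes named by sex, by r or as examples of markers were added after their values were seen, and some list genes are not reported singly here. Correlations, promoter windows and figures were made with Python 3.11.15, scipy 1.17.1, numpy 2.4.6, pandas 2.3.3 and matplotlib 3.10.9. The test was checked on simulated data. The genes and lists were chosen with earlier results of these data known. Alternatives were other background correction, scaling, filters, source table, moderation, weights, blocks and each embryo left out.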

Additional observations from a re-analysis of the deposited data

Results flagged for a closer look

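In 26 groups of 4 values (13 probes in either father group), 1 held a value set apart from its group by Dixon's criterion, about as many as chance gives, 1 in 20. It was the second *Tbx20* probe in HET father embryo 3, at -0.90 against -1.47 to -1.38 in the other 3 embryos of the group. The array of this embryo is among those that stood apart, and the brightest *Tbx20* probe, at 0.75 there, was within the range of its group.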

How the results depend on the processing

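No probe of the 10 genes was called by father, by sex or by their interaction under any alternative run. The number at an unadjusted p under 0.05 by father moved from 0 to 1 with normexp and quantile normalization (*Tbx5*, 0.25) and was 0 or 1 when each embryo was left out in turn (1, *Hand2*, without WT father embryo 4). By sex it moved from 2 to 0 under a median shift, to 1 with no filter on dim probes and to 0 without the arrays of WT father embryo 1 and HET father embryo 3 (left out together after the data were seen), and ranged from 1 to 4 over the fits without one embryo: it was 1 without any of WT father embryos 1 to 4 or HET father embryo 2, and 4 without HET father embryo 4. Differences by father near 0 changed sign: *Mef2c* to -0.029 with normexp, *Isl1* to -0.059, *Gata4* to -0.043 and *Tbx20* to -0.091 under the median shift, which moved the median of all probes by -0.10, *Nkx2-5* to 0.0071 with the embryo code as a block, *Gata4* to -0.044 and *Smyd1* to 0.0098 with array weights, and *Isl1* to -0.018, *Gata4* to -0.032, *Gata6* to -0.0022 and *Smyd1* to 0.020 without both arrays that stand apart. Over the fits without one embryo, *Nkx2-5* ran from -0.061 to 0.081, *Isl1* from -0.011 to 0.12, *Gata4* from -0.030 to 0.14, *Tbx20* from -0.087 to 0.090 and *Smyd1* from -0.070 to 0.012. By sex, the median shift turned *Nkx2-5* to 0.035, *Isl1* to 0.0037 and *Hand1* to 0.082, and leaving out an embryo put *Hand1* between -0.22 and 0.011 and *Mef2c* between -0.12 and 0.20. The median shift also turned the r of the 10 genes with the erythroid list to 0.49 and with the yolk sac list to 0.86, where leaving out an embryo gave -0.97 to -0.80 and -0.97 to -0.65. The cause was not tested. Deviations of same-numbered embryos had r of -0.55, -0.05, -0.59 and -0.15. Same-numbered embryos were of opposite sex, so these values cannot decide whether replicate numbers pair the embryos. The replicate block left 0 member probes called and 0 at an unadjusted p under 0.05.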
